A study of Mus musculus with 18 samples.

Results

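The 10 genes described here encode the core of MHC class I antigen presentation, and all were read from the table of 18585 genes by their symbols: H2-K1, H2-D1, B2m, Tap1, Tap2, Tapbp, Psmb8, Psmb9, Psmb10 and Nlrc5. They were measured by CEL-seq, which reads a tag near the 3' end of each RNA, in forepaws of C57BL/6 mice that lacked Sema3b, a secreted semaphorin, or were wild type (WT). The groups were Sema3b-/- with arthritis (5 libraries), WT with arthritis (5), Sema3b-/- control (4) and WT control (4). The labels name neither the arthritis model nor the age of the mice, and no treatment is given for the controls. The sources used here do not say which part of Sema3b was removed. Titles of control libraries begin with different letters from those of arthritis libraries, so whatever the titles stand for cannot be told apart from arthritis.

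MHC class I molecules show short peptides from inside the cell to CD8 T cells and are carried by nearly all nucleated cells. The peptides are cut by the proteasome, whose catalytic subunits are exchanged for Psmb8, Psmb9 and Psmb10 to form the immunoproteasome, and are pumped into the endoplasmic reticulum (ER) by Tap1 and Tap2, where tapasin (Tapbp) helps to load them onto a heavy chain paired with B2m. Interferon gamma raises most of these genes, and NLRC5 is a transactivator that acts at class I promoters; in inflamed joints both leukocytes and resident cells carry class I.

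On mm10 with the GENCODE annotation, 7 of the genes lie on chromosome 17 in the major histocompatibility complex. H2-K1 (33996017 to 34000347, minus strand, 6 exons) and H2-D1 (35262730 to 35267499, plus strand, 8 exons) encode the heavy chains. Psmb9 (34181987 to 34187764, minus strand, 6 exons), Tap1 (34187553 to 34197225, plus strand, 9 exons), Psmb8 (34197721 to 34201454, plus strand, 6 exons) and Tap2 (34203527 to 34216321, plus strand, 12 exons) are neighbours between them, and Tapbp, outside that interval, spans 33915899 to 33929292 (plus strand, 8 exons). B2m is on chromosome 2 (122147686 to 122153083, plus strand, 4 exons), and chromosome 8 holds Psmb10 (105935735 to 105938444, minus strand, 8 exons) and Nlrc5 (94434356 to 94527272, plus strand, 53 exons). In the last 500 bases of the transcripts, where tags fall, H2-K1 and H2-D1 shared 2 of 451 stretches of 50 bases (0.443%), the other 8 genes shared none with the 10 or with annotated H2 genes, and no exon of another gene overlapped.

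Promoters are shown because class I genes are known to be switched on through a kappaB site and a module that holds a TGACG (X2) and a CCAAT (Y) box. RefSeq (GRCm38.p6) promoters were at hand for H2-K1, H2-D1, B2m, Tap1, Tapbp, Psmb8, Psmb9 and Psmb10, and both strands of the 250 bases before each start were searched. Capitals mark matches. H2-K1 (chr17:34000348-34000597, minus strand) holds the kappaB letters, TGACG and ATTGG, in this order, and B2m (chr2:122147437-122147685, plus strand) holds GAAACTGAAA, TGACG and ATTGG, where ATTGG is CCAAT on the other strand and GAAACTGAAA matches the interferon-stimulated response element, which was searched as GAAA, any 2 bases and GAAA.
H2-K1: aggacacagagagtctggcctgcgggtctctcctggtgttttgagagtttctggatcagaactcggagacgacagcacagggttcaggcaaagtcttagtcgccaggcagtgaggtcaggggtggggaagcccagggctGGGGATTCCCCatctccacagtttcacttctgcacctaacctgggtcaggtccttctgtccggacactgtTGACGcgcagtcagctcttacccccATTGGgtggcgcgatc
B2m: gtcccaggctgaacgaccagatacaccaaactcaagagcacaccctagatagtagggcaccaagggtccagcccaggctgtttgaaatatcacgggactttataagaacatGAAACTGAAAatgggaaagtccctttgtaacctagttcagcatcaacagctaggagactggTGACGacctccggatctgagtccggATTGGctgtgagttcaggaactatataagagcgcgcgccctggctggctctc

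In H2-K1, H2-D1 and B2m the TGACG and ATTGG letters stood on the same strand with 20 bases between them, a spacing noticed in these sequences and then counted. It occurred in 30 of 32851 promoters (0.0913%, 26 genes), and H2-M3, a class I-like chain described further on, was another of them. The pairs are given with the boxes in capitals, on chr17:34000359-34000388 (minus), chr17:35262993-35263022, chr2:122147609-122147638 and chr17:37270188-37270217 (plus).
H2-K1: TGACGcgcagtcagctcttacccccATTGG
H2-D1: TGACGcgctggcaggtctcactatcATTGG
B2m: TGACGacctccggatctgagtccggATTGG
H2-M3: TGACGcttctccaattcccattctaATTGG
The kappaB letters, in capitals in the stretches that follow, were in 10 of 32851 promoters (0.0304%), which belong to 9 genes, among them H2-K1, H2-D1 and H2-Q6. Only this spelling was searched, so the absence of other kappaB spellings from the remaining genes, B2m among them, was not shown. Over the 29 bases around the site H2-K1 (chr17:34000439-34000467, minus) and H2-D1 (chr17:35262914-35262942, plus) were identical at 28, and differed by A27T, counted from 1 at the 5′ end of the stretch.
H2-K1: cccagggctGGGGATTCCCCatctccaca
H2-D1: cccagggctGGGGATTCCCCatctcctca

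The other motifs were searched with fewer letters or with free bases, and their matches were more widespread. The letters searched for the interferon-stimulated response element were in 2.98% of all promoters and among these genes in B2m. Other spellings of this element were not searched, so its absence from the other genes was not shown. TTCNNNGAA, the gamma-activated sequence, was in 7.02% of promoters and in Psmb8, at chr17:34198089-34198115 (plus strand), shown as a short stretch because an annotated exon of Psmb8 covers it.
Psmb8: cctccgctgTTCCCAGAAgatgccccc
CCAAT was in 33.8% of promoters and in H2-K1, H2-D1, B2m, Tap1, Psmb9 and Tapbp, and TGACG in 17.8% and in H2-K1, H2-D1, B2m, Tap1 and Psmb9. None of the 5 motifs, in the spellings searched, was found in Psmb10. Tap1 and Psmb9 are divergent genes whose RefSeq starts lie 225 bases apart, and the stretch between them belongs to the window of both. The kappaB site and the box pair of H2-D1 are likewise covered by an annotated exon of their gene. A match describes letters and not a bound site, and none of the factors was measured at these promoters.

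Libraries held 1732783 to 19464892 reads (median 7279063.5), with the fewest in Sema3b-/- control replicate 1. Sema3b was at 0 to 3.49 normalized counts in the 5 Sema3b-/- arthritis libraries and 0 to 7.20 in the 4 Sema3b-/- controls, against 23.7 to 66.7 in WT arthritis and 44.2 to 67.5 in WT control, so it followed the genotype labels; a count of 0 allows up to 3 reads, or 12.1 normalized counts in the shallowest library. Sex, read from Xist and Y-linked genes, differed between the groups. It was female in 4 of 5 Sema3b-/- arthritis libraries, 1 of 5 WT arthritis libraries, 2 of 4 Sema3b-/- controls and all 4 WT controls. All 10 genes passed the filter on low values (at least 10 normalized counts, that is reads divided by a library's size factor, in at least 4 libraries), as did 13809 genes in all.

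In arthritis, B2m and the 3 immunoproteasome subunits were higher than in controls when the effects in both genotypes were averaged, while the heavy chains, both transporter chains, tapasin and Nlrc5 did not pass the test. With limma on log2(value + 1) and Benjamini-Hochberg adjustment over 13809 genes, B2m was higher by 0.83 log2 units (SE 0.17, adjusted p = 0.00205), Psmb9 0.84 (SE 0.23, adjusted p = 0.0154), Psmb8 0.66 (SE 0.19, adjusted p = 0.020) and Psmb10 0.38 (SE 0.12, adjusted p = 0.0338). That is 4 of the 10 genes, all 4 higher, where 23.5% of all genes tested passed in either direction and 12.6% were higher. The median log2 fold change of the 10 genes was 0.36 and that of all genes tested -0.01. By unadjusted p under 0.05 there were 6 of the 10, and 38% of all genes. The 6 that missed the adjusted threshold had log2 fold changes of 0.03 (Tap2) to 0.52 (Tap1), with adjusted p from 0.0756 to 0.911.

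The calls of B2m, Psmb8 and Psmb9 held in all 18 fits that left out 1 library. Psmb10 did not without any 1 of 8 libraries, namely Sema3b-/- arthritis replicates 2 and 5, WT arthritis replicates 4 and 5, Sema3b-/- control replicates 1 and 3, and WT control replicates 1 and 4 (adjusted p up to 0.0705), nor with sex as a term (0.066). With only the 7 arthritis libraries whose titles begin with Joint, B2m was called and Psmb8 (adjusted p = 0.072), Psmb9 (0.0637) and Psmb10 (0.15) were not. Leukocyte markers were among the genes that rose in arthritis. The 5 markers of all leukocytes (Ptprc, Laptm5, Coro1a, Cd52, Cd53) summed to 5777 to 10578 normalized counts in Sema3b-/- arthritis, 3476 to 10321 in WT arthritis, 2226 to 5641 in Sema3b-/- control and 2914 to 3729.6 in WT control, and none was at 0 in every library. Their part in the result was not tested, and in whole paws more cells that carry class I and more RNA per cell cannot be told apart.

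**Figure D1:**
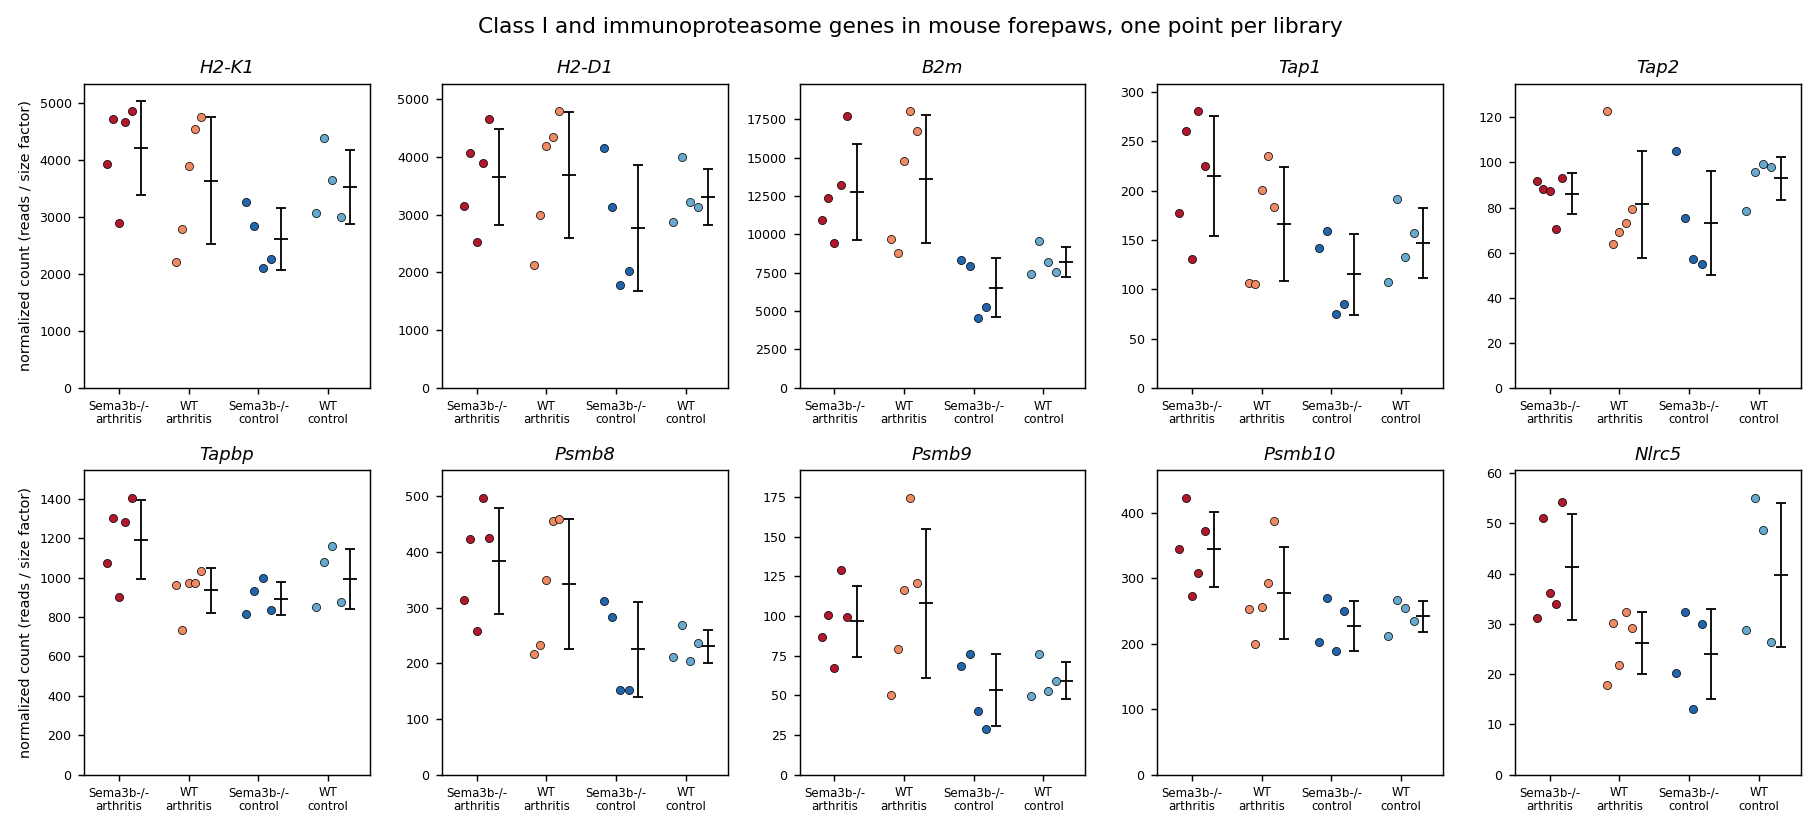
Normalized counts (reads divided by size factor, linear axes from 0) of the 10 genes, 1 panel a gene, with 1 point a library and the mean ± SD beside each group. B2m and Psmb10 do not overlap between Sema3b-/- arthritis and Sema3b-/- control, while every gene overlaps between WT arthritis and WT control.

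The first set of genes forms the class I molecule itself. B2m, the light chain, was at 10923, 12371, 9441, 13200.5 and 17707 normalized counts in Sema3b-/- arthritis (replicates 1 to 5), against 8359.5, 7958, 4533 and 5255 in Sema3b-/- control (replicates 1 to 4). Every arthritis library was above every control library, which was the case for 7.13% of all genes tested in this direction, and the log2 fold change was 0.98 (SE 0.23, limma adjusted p = 0.0131). Without Sema3b-/- control replicate 3, the lowest of all 18 libraries, its adjusted p was 0.0507. In WT arthritis B2m was at 9717, 8802, 14746, 18011 and 16759, against 7417, 9575, 8174 and 7545 in WT control. Here replicates 1 and 2 of the arthritis group lay close to the controls and replicate 2 below the highest control, while replicates 3 to 5 were above every control. The log2 fold change of 0.68 (SE 0.23, adjusted p = 0.105) did not pass, and without WT arthritis replicate 2 it did (0.83, adjusted p = 0.0346).

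H2-K1, a classical heavy chain, was at 3927, 4716, 2894, 4658 and 4852 in Sema3b-/- arthritis and 3265, 2837, 2094 and 2256 in Sema3b-/- control. Only replicate 3 of the arthritis group was below the highest control, and the log2 fold change was 0.69 (SE 0.22, adjusted p = 0.0494). This call lay at the threshold. It held without any 1 of Sema3b-/- arthritis replicate 3, WT arthritis replicates 1, 2, 4 and 5, and Sema3b-/- control replicate 1, and ended without any 1 of the other 12 libraries (adjusted p up to 0.138). In WT arthritis H2-K1 was at 2206, 2793, 3885, 4549 and 4752, against 3061, 4390.1, 3650.4 and 2994 in WT control. The 2 lowest and the 2 highest values were all in arthritis, so the means of 3637 ± 1106 (SD, n = 5) and 3524 ± 648 (SD, n = 4) were close, with a log2 fold difference of 0.00 (SE 0.22, 95% confidence interval -0.46 to 0.47).

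H2-D1, the other classical heavy chain of C57BL/6 mice, was at 3143, 4069, 2529.9, 3888 and 4659 in Sema3b-/- arthritis and 4151, 3136, 1781 and 2024 in Sema3b-/- control. The groups overlapped. Control replicate 1 was above all but 1 arthritis library, and control replicate 2 was above arthritis replicate 3. The log2 fold change was 0.45 (SE 0.26, adjusted p = 0.269). In WT arthritis it was at 2125, 2999, 4186, 4337 and 4789.6, against 2869, 4005, 3223 and 3132 in WT control, a log2 fold difference of 0.11 (SE 0.26, adjusted p = 0.842). Replicate 1 of WT arthritis was below every WT control and replicates 3 to 5 were above every one.

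The transporter chains and tapasin did not pass limma with 4 group means over all 18 libraries, and Tap1 lay at the threshold. Tap1, which with Tap2 forms the peptide pump, was at 178, 261, 131, 281 and 225 in Sema3b-/- arthritis and 142, 159, 74.8 and 85.1 in Sema3b-/- control, a log2 fold difference of 0.91 (SE 0.30, adjusted p = 0.0506). Its arthritis replicate 3 was below 2 of the 4 controls. Tap1 was called in this comparison with a pseudocount of 5 (adjusted p = 0.0489), with DESeq2, with sex as a term, and without any 1 of Sema3b-/- arthritis replicate 3, WT arthritis replicates 1 to 4 and Sema3b-/- control replicate 2 (adjusted p from 0.0267). Averaged over genotypes it was called without any 1 of Sema3b-/- arthritis replicate 3, WT arthritis replicates 1 and 2 and Sema3b-/- control replicate 2 (adjusted p from 0.0397). In WT arthritis Tap1 was at 106, 106, 201.2, 235 and 183, against 107, 191, 132 and 157 in WT control, a log2 fold difference of 0.13 (SE 0.30).

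Tap2 was at 92.0, 88.1, 87.4, 70.6 and 93.1 in Sema3b-/- arthritis, against 105, 75.4, 57.0 and 55.2 in Sema3b-/- control. In WT arthritis it was at 123, 63.7, 69.0, 73.1 and 79.2, against 78.5, 95.7, 99.4 and 98.0 in WT control. All groups overlapped, with log2 fold changes of 0.28 (SE 0.21) in Sema3b-/- mice and -0.22 (SE 0.21) in WT mice. Tap1 and Tap2 thus had different estimates in the same libraries, a difference that was not tested.

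Tapbp, tapasin, was at 1073, 1301, 902, 1283 and 1403 in Sema3b-/- arthritis and 813, 929, 996 and 835 in Sema3b-/- control (log2 fold change 0.40, SE 0.14, adjusted p = 0.0730). Replicate 3 was again the arthritis library inside the range of the controls, and without it Tapbp was called (adjusted p = 0.0278). In WT arthritis it was at 961, 733, 970.4, 973 and 1034, against 849.9, 1077, 1160.5 and 878 in WT control, and its log2 fold change was -0.08 (SE 0.14).

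The third set is the immunoproteasome. Psmb10, the inducible beta2i subunit, was at 345, 423, 273, 308 and 373 in Sema3b-/- arthritis and 202, 269, 189 and 249.4 in Sema3b-/- control. The groups did not overlap, and the log2 fold change was 0.59 (SE 0.18, adjusted p = 0.0351). This call ended without any 1 of Sema3b-/- arthritis replicates 1, 2 and 5 and Sema3b-/- control replicates 1 and 3 (adjusted p up to 0.106). In WT arthritis Psmb10 was at 253, 199, 256, 293 and 387, against 212, 266, 254 and 234 in WT control (0.17, SE 0.18).

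Psmb8, the beta5i subunit, was at 314, 423, 258, 497 and 426 in Sema3b-/- arthritis and 312, 284, 152 and 152 in Sema3b-/- control, a log2 fold difference of 0.81 (SE 0.27, adjusted p = 0.0588). Replicates 1 and 2 of the control group lay near the lower arthritis libraries and replicates 3 and 4 far under them. In WT arthritis Psmb8 was at 216, 232, 349.5, 456 and 459, against 211, 268, 205 and 237 in WT control (0.51, SE 0.27, adjusted p = 0.288).

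Psmb9, the beta1i subunit, was at 86.8, 100.4, 67.3, 129 and 99.3 in Sema3b-/- arthritis and 68.8, 76.0, 40.4 and 28.8 in Sema3b-/- control (0.91, SE 0.33, adjusted p = 0.0747). In WT arthritis it was at 50.3, 78.9, 116, 174 and 121, against 49.7, 75.8, 52.5 and 58.8 in WT control (0.76, SE 0.33, adjusted p = 0.188). In WT mice only arthritis replicate 1 lay inside the range of the controls, and in Sema3b-/- mice only arthritis replicate 3 did.

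Nlrc5, the class I transactivator, had few reads (5 to 78 a library). It was at 31.1, 51.2, 36.2, 34.0 and 54.2 in Sema3b-/- arthritis and 20.2, 32.4, 13.1 and 30.0 in Sema3b-/- control (0.81, SE 0.31, adjusted p = 0.0989). In WT arthritis it was at 17.7, 30.1, 21.8, 32.3 and 29.2, against 28.7, 55.0, 48.8 and 26.4 in WT control, a log2 fold difference of -0.54 (SE 0.31, adjusted p = 0.328). The 2 highest WT libraries were controls, so the estimate for Nlrc5 had the opposite sign to those for B2m and the immunoproteasome subunits in WT mice.

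**Figure D2:**
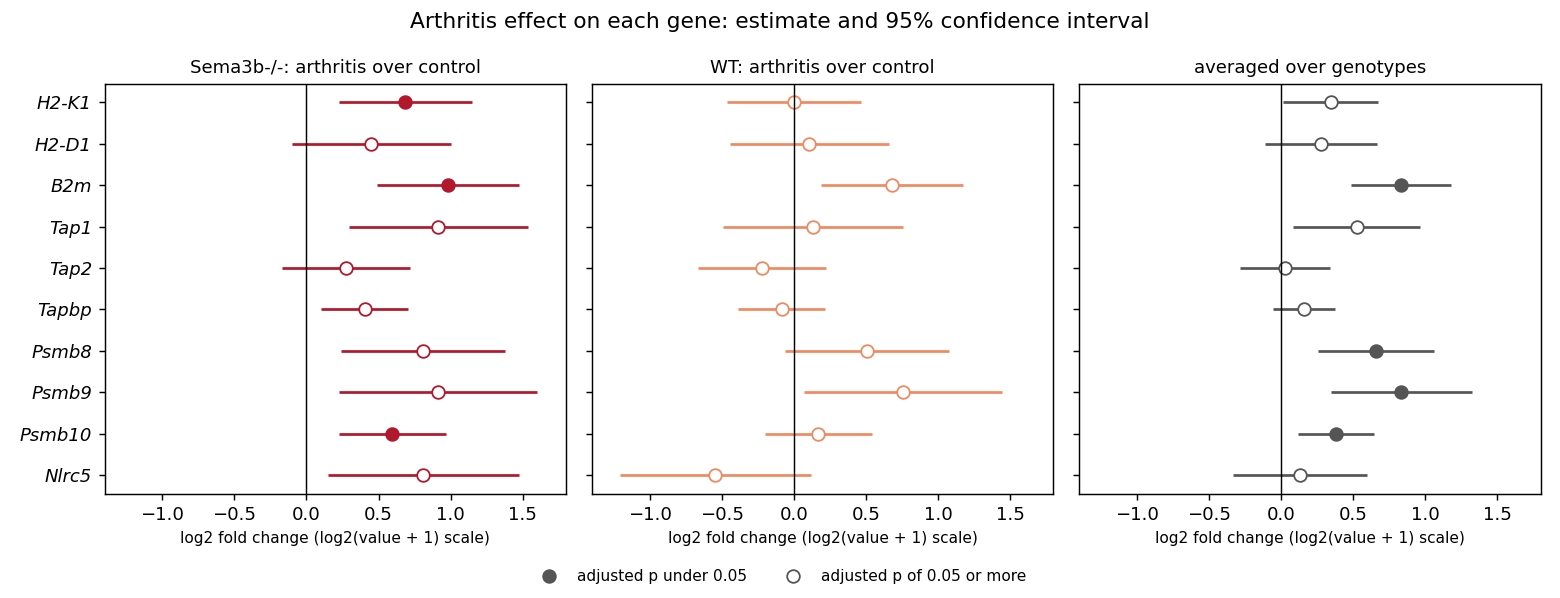
Log2 fold change of arthritis over control for each gene with its 95% confidence interval, in Sema3b-/- mice, WT mice and averaged over genotypes; filled points passed a limma adjusted p of 0.05 over all genes tested. In Sema3b-/- mice all 10 estimates are above 0, in WT mice they run from -0.54 (Nlrc5) to 0.76 (Psmb9).

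Counted within each genotype, 3 of the 10 genes passed in Sema3b-/- arthritis against Sema3b-/- control (H2-K1, B2m and Psmb10, all higher), where 12.4% of all genes tested passed, 6.84% higher and 5.55% lower. Groups did not overlap for 2 of the 10, B2m and Psmb10, both higher, and for 7.13% of all genes higher and 6.11% lower. The median log2 fold change of the 10 was 0.75 and of all genes -0.01, and 8 of the 10 had an unadjusted p under 0.05 (28.5% of all genes). Leaving out Sema3b-/- arthritis replicate 1, 2 or 5 left 1 call, and leaving out Sema3b-/- control replicate 3 left 0. There were 5 calls without Sema3b-/- control replicate 2, and 6 without either Sema3b-/- arthritis replicate 3 or WT arthritis replicate 1. With sex as a term 7 passed, H2-K1, B2m, Tap1, Tapbp, Psmb8, Psmb9 and Psmb10. Within females alone B2m averaged 11484 normalized counts in the 4 Sema3b-/- arthritis libraries and 6807 in 2 Sema3b-/- controls.

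In WT arthritis against WT control 0 of the 10 passed with limma or edgeR, B2m passed with DESeq2, and 4.21% of all genes passed with limma (2.64% higher, 1.58% lower). Groups overlapped for all 10 genes, and did not for 5.82% of all genes higher and 4.71% lower. B2m and Psmb9 had an unadjusted p under 0.05, where 21.2% of all genes did, and the median of the 10 was 0.12 against -0.02 for all genes. The WT comparison sets mostly male arthritis libraries against female controls. With sex as a term the log2 fold change of B2m was 0.44 (adjusted p = 0.488) and that of Psmb9 0.34 (adjusted p = 0.714). In the authors' deposited table B2m in Sema3b-/- mice was the 1 member with an adjusted p under 0.05 (log2 fold change 0.96, adjusted p = 0.0362) and no member had one in WT mice.

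Genotype was compared at each condition. In arthritis, Sema3b-/- libraries were set against WT libraries, and 0 of the 10 genes passed (0.0217% of all genes did). Tapbp (0.34, SE 0.14, adjusted p = 0.465) and Nlrc5 (0.63, SE 0.30, adjusted p = 0.544) had unadjusted p under 0.05, as did 8.97% of all genes, and estimates ran from -0.07 for B2m and Psmb9 to 0.63. For B2m the 95% confidence interval was -0.53 to 0.39. In controls, Sema3b-/- libraries against WT libraries, all 10 estimates were below 0, from -0.10 to -0.72, and 0 passed (0.0145% of all genes did, and adjusted p of the 10 ran from 0.835 to 0.999). Nlrc5, at -0.72 (SE 0.33), was the 1 gene with an unadjusted p under 0.05, as were 5.87% of all genes. In both genotype comparisons the groups overlapped for all 10; among all genes they did not for 0.775% higher and 0.999% lower in arthritis, and for 2.07% higher and 2.13% lower in controls.

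The difference between the arthritis effects of the genotypes was tested as an interaction, and 0 of the 10 genes, as of all genes (0%), passed with limma. All 10 estimates were above 0. H2-K1 (0.68, SE 0.31), Tapbp (0.49, SE 0.20) and Nlrc5 (1.35, SE 0.45, unadjusted p = 0.00705) had an unadjusted p under 0.05, as did 4.8% of all genes, and the adjusted p of every member was 0.974 or more. DESeq2 and edgeR also called 0 members in the interaction and in both genotype comparisons. These comparisons share libraries. The low Sema3b-/- controls enter the arthritis effect in Sema3b-/- mice, the genotype effect in controls and the interaction alike, so the signs of those 3 are not independent of each other.

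The genes varied together between libraries of the same group. Sema3b-/- arthritis replicate 3 was the lowest of its group for 8 of the 10 genes and Sema3b-/- control replicate 3 for 7. In WT arthritis replicates 1 and 2 were both below replicates 3, 4 and 5 for 8 genes, all but Tap2 and Nlrc5. Summed leukocyte markers were also lowest in WT arthritis replicates 1 and 2, at 3476 and 5443, against 7556, 10321 and 8031 in replicates 3 to 5. Sema3b-/- controls had sums of 4398, 5641, 2744 and 2226, with replicates 3 and 4 again the low ones, as they were for 7 of the 10 genes. WT control replicate 1 was the lowest of its group for 7 genes. Its leukocyte sum of 3421 was above the 2914 and 2930 of replicates 3 and 4. Summed muscle genes, named further on, were highest of their group in WT arthritis replicates 1 and 2 (83521 and 98440). The same held for Sema3b-/- control replicates 3 and 4 (104653 and 138052). Sema3b-/- arthritis replicate 3 had the lowest leukocyte sum of its group, 5777, while its muscle sum, 40095, was under that of replicate 1, 48201. The part of either set of markers was not tested.

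**Figure D3:**
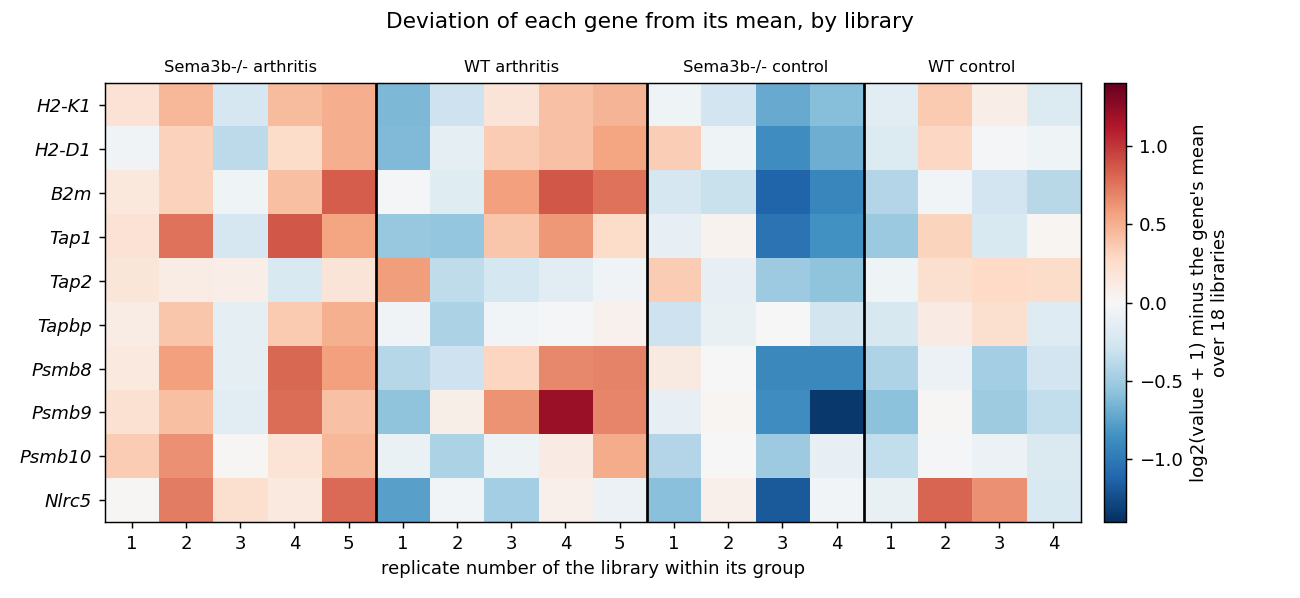
Log2(value + 1) of each gene minus its mean over the 18 libraries, by library within each group, red above and blue below the mean. WT arthritis replicates 1 and 2, Sema3b-/- arthritis replicate 3 and every control library but WT control replicate 2 are blue for most genes. Among controls, Sema3b-/- control replicates 3 and 4 lie furthest below the mean for most genes. Tap2 and Nlrc5 follow the others less closely.

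After group means were taken off, Pearson's r between members over 18 libraries ran from -0.07 to 0.94 over 45 pairs (median 0.54). H2-K1 and H2-D1 had r = 0.94, Tap1 and Psmb8 0.93, and the divergent genes Tap1 and Psmb9 0.90. With the mean of the other 9 genes, r was 0.09 to 0.94. Tap1 and Tap2 had r = 0.11, and Nlrc5 and B2m 0.50. Library composition and size factors are shared by all these values, and the correlations are a description. Of 13799 genes that are not members, the most similar to the mean of the 10 were Ifi47 (Pearson's r = 0.95, Spearman's rho = 0.92), an interferon-inducible GTPase, Ly86 (0.93 and 0.92), a partner of the receptor CD180, Ptpn18 (0.92 and 0.94), a tyrosine phosphatase, Cd48 (0.92 and 0.92), a surface glycoprotein of leukocytes, and Irgm2 (0.92 and 0.90), another immunity-related GTPase.

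Each inducible subunit takes the place of a constitutive one, Psmb8 of Psmb5, Psmb9 of Psmb6 and Psmb10 of Psmb7. The constitutive subunits had averaged log2 fold changes of 0.12, 0.13 and 0.08, and none passed. The level of Psmb8 per 100 of Psmb5 was 61.9 ± 14.4 in Sema3b-/- arthritis, 58.4 ± 23.2 in WT arthritis (SD, n = 5 each), 39.6 ± 17.96 in Sema3b-/- control and 43.2 ± 6.99 in WT control (SD, n = 4 each). These are ratios of tag counts in the same library, so the size factor cancels.

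Psmb9 per 100 of Psmb6 was 11.3 ± 2.64 in Sema3b-/- arthritis, 12.3 ± 5.14 in WT arthritis, 6.85 ± 3.36 in Sema3b-/- control and 7.66 ± 1.93 in WT control. Psmb10 per 100 of Psmb7 was 45.5 ± 11.98, 35.9 ± 14.5, 30.9 ± 8.41 and 32.7 ± 5.04 in the same groups. By exact permutation of libraries, two-sided, the log2 ratios in Sema3b-/- arthritis exceeded those in Sema3b-/- control by 0.73 (Psmb8, p = 0.0873), 0.83 (Psmb9, p = 0.0714) and 0.56 (Psmb10, p = 0.0714), with p = 0.349 each after adjustment over 12 tests. WT arthritis differed from WT control by 0.35 (p = 0.333), 0.57 (p = 0.198) and 0.05 (p = 0.889) in these exact tests. The smallest p that 5 against 4 libraries can give is 0.00794, and a single ratio at that p would not pass the adjustment over 12 tests. No ratio passed.

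**Figure D4:**
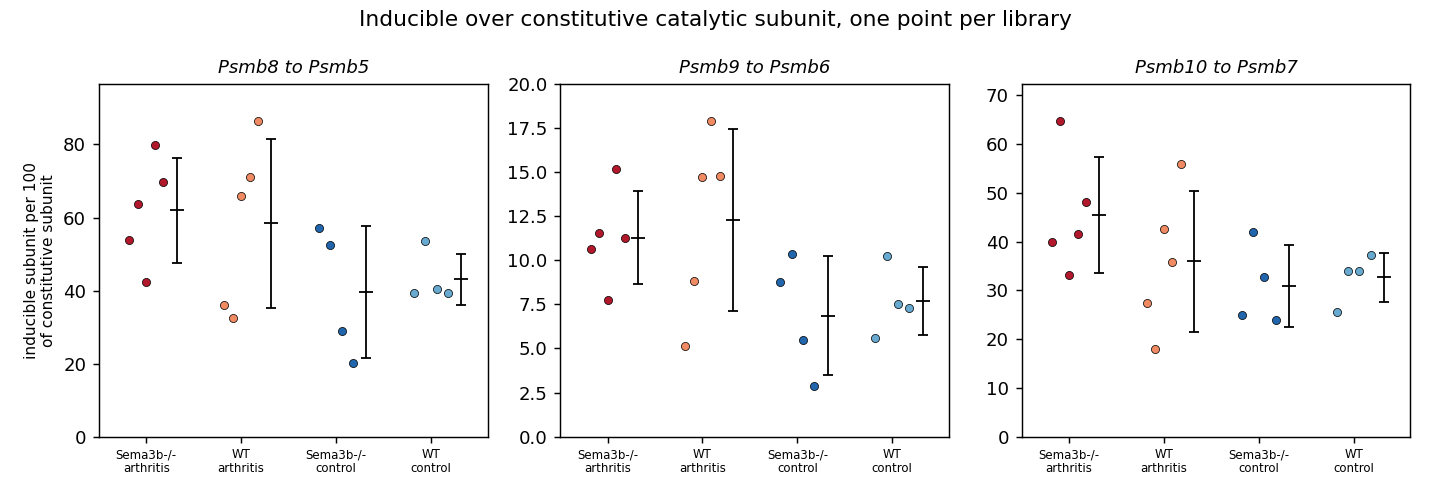
Inducible subunit per 100 of its constitutive counterpart (ratio of normalized counts, linear axes from 0), 1 point a library, with mean ± SD beside each group. Means of all 3 ratios are higher in arthritis than in control of the same genotype, WT arthritis libraries also reach below the lowest WT control, and the groups overlap.

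The surrounding pathway was read from lists, for arthritis over control averaged over genotypes, where 12.6% of all genes tested were called higher and 10.9% lower. Of 7 other class I and class I-like chains tested (of 16 listed), 2 rose, H2-M3, which presents formylated peptides (0.92, SE 0.20, limma adjusted p = 0.00402), and Hfe, a regulator of iron uptake (0.61, SE 0.18, adjusted p = 0.0185). H2-M3 is the gene whose promoter has the box pair shown for H2-K1, H2-D1 and B2m. Of those, B2m was called in this comparison, and H2-K1 (limma adjusted p = 0.113) and H2-D1 (0.278) were not. Whether the pair goes with a rise in arthritis was not tested. The list median was 0.45.

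Of 10 genes of peptide loading and trimming in the ER 7 rose. These were the chaperones Canx (0.37), Calr (0.33) and Hspa5 (0.60), the oxidoreductase Pdia3 of the loading complex (0.90, SE 0.12, adjusted p = 0.000107), the folding sensor Uggt1 (0.47), the trimming peptidase Erap1 (0.58) and the translocon subunit Sec61b (0.93, SE 0.16, adjusted p = 0.000758). Canx, Pdia3, Hspa5, Uggt1 and Sec61b kept their calls whichever library was left out, Calr ended without 6 and Erap1 without 2 libraries (Sema3b-/- control replicate 3 and WT control replicate 3). Many of these proteins fold other secretory proteins as well. Pdia3 was at 1334 ± 257 normalized counts in Sema3b-/- arthritis and 717 ± 82.7 in Sema3b-/- control, and at 1247 ± 301 in WT arthritis and 648 ± 47.6 in WT control, and it passed in both genotypes (adjusted p = 0.00382 and 0.00760).

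Among 11 other subunits of the 20S core, which both proteasome types share, 9 rose by small steps, Psma1 (0.25), Psma2 (0.23), Psma3 (0.36), Psma4 (0.41), Psma5 (0.37), Psma6 (0.30), Psma7 (0.47), Psmb1 (0.27) and Psmb3 (0.27). The list median was 0.30 and that of all genes -0.01, and 4 of the 9 calls (Psma3, Psma4, Psma5 and Psma7) held whichever library was left out, which is all that passed without Sema3b-/- control replicate 3. Of 9 activators and assembly factors 4 rose and 1 fell. Psme1 (0.35) and Psme2 (0.47), the interferon-inducible PA28 activator, and the assembly chaperones Psmg3 (0.42) and Psmg4 (0.48) rose, and Psme3, the nuclear PA28 gamma, fell by 0.40 on the log2 scale (SE 0.11, adjusted p = 0.0134). Pomp, a proteasome assembly factor, was at 0.25 (adjusted p = 0.0599).

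Of 19 genes of interferon gamma signalling and class I regulation tested 7 rose, among them the receptor chains Ifngr1 (0.38) and Ifngr2 (0.55), the kinases Jak1 (0.24) and Jak2 (0.39), Irf9 (0.44) and Ciita, the class II transactivator (0.61, SE 0.20, adjusted p = 0.0371). Ifngr2, Jak1 and Jak2 kept their calls in every fit that left out 1 library. The calls of Ifngr1, Irf9 and Ciita ended without any 1 of 13, 9 and 11 libraries. With sex as a term 4 genes of the list passed, and Ifngr1 (limma adjusted p = 0.0997), Irf9 (0.0610) and Ciita (0.0802) did not. The count was also 4 without any 1 of Sema3b-/- arthritis replicates 2 and 5, WT arthritis replicates 4 and 5, Sema3b-/- control replicate 3 and WT control replicates 1, 2 and 4. The RFX and NF-Y subunits that hold NLRC5 at class I promoters did not pass, and Rfx5 had a log2 fold difference of 0.00. Irf1 was at 0.21 (adjusted p = 0.268). Ifng itself had 0 to 6 reads a library and was not tested. Within genotypes, 3 of the 19 were called higher in Sema3b-/- arthritis (list median 0.35) and 0 in WT arthritis (list median -0.095). Of all genes tested, 6.84% and 2.64% were called higher in these comparisons. In the interaction 0 of the 19 passed.

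Ciita was at 63.6 ± 8.01 normalized counts in Sema3b-/- arthritis and 25.6 ± 12.6 in Sema3b-/- control, a log2 fold difference of 1.41 (SE 0.28, adjusted p = 0.00503). In WT arthritis it was at 41.6 ± 9.90 and in WT control at 47.0 ± 3.95 (-0.20, SE 0.28, adjusted p = 0.719). Its interaction was 1.61 (SE 0.40) with an adjusted p of 0.658, so like Nlrc5, the related transactivator of class I, its genotypes were not shown to differ.

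Of 10 interferon gamma targets outside class I tested (of 12 listed) 6 rose, and the list median was 0.70. Cxcl10, a chemokine for activated T cells, rose by 1.91 (SE 0.51, adjusted p = 0.0131), and the GTPases Gbp3 (0.83), Irgm1 (0.82), Ifi47 (0.81), Gbp7 (0.52) and Gbp2 (0.52) rose too. Cxcl10 and Irgm1 kept their calls whichever library was left out. Leaving out Sema3b-/- control replicate 3 gave 3 calls, leaving out WT control replicate 1 gave 2, and sex as a term gave 2. Within genotypes, 4 of the 10 were called higher in Sema3b-/- arthritis (list median 0.95) and 0 in WT arthritis (list median 0.28). Of all genes tested, 6.84% and 2.64% were called higher in these comparisons. In the interaction 0 of the 10 passed. Of 2 receptors that read class I and were tested, Klrk1, an activating receptor of NK and T cells, rose by 0.79 (adjusted p = 0.0394), a call that ended without any 1 of 11 libraries.

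With only arthritis libraries titled Joint, counts called in either direction were 4 for peptide loading, 5 for the 20S core, 2 for activators and assembly factors, 3 for interferon signalling and 1 for interferon targets.

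**Figure D5:**
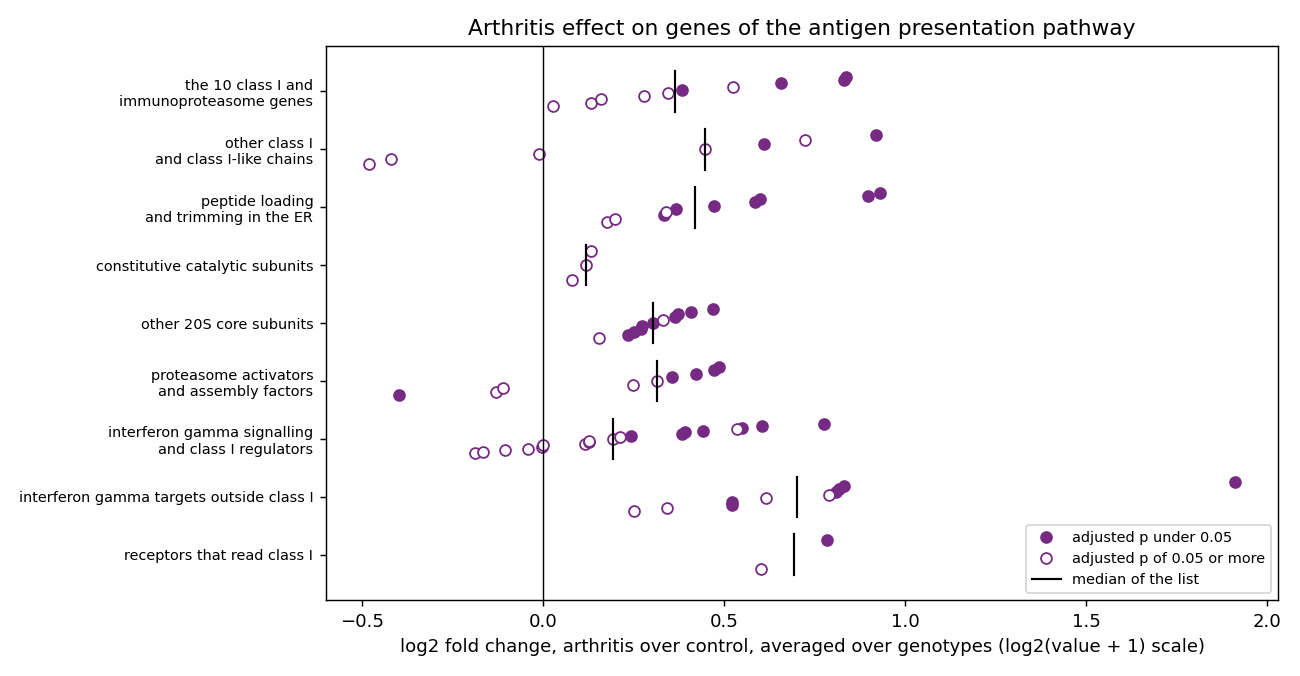
Log2 fold change of arthritis over control, averaged over genotypes, for the 10 genes and for each list of the pathway, 1 point a gene; filled points passed a limma adjusted p of 0.05 and the black bar is the list median. The medians run from 0.12 for the constitutive catalytic subunits to 0.70 for interferon gamma targets outside class I.

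Markers of other cells moved with arthritis beside these genes, in the same averaged comparison. Of 5 markers of all leukocytes Ptprc (1.02), Cd52 (1.63) and Cd53 (1.37) rose (all 5 without either Sema3b-/- arthritis replicate 3 or Sema3b-/- control replicate 2), as did 5 of 6 monocyte and macrophage markers, Lyz2 (1.74), Cd68 (0.79), Itgam (1.09), Fcgr1 (1.96) and Ccr2 (1.62), whose list summed to 3449.6 to 5412 normalized counts in Sema3b-/- arthritis, 2455 to 4893 in WT arthritis, 1796 to 3211 in Sema3b-/- control and 2271 to 2543 in WT control. Of 5 T and NK cell markers tested only Gzmb, granzyme B, rose (3.72, SE 0.64), with list sums of 67.3 to 207 in Sema3b-/- arthritis, 66.5 to 221 in WT arthritis, 39.6 to 121 in Sema3b-/- control and 97.2 to 132 in WT control. The B cell receptor chains Cd79a (-1.84, SE 0.41, adjusted p = 0.00475) and Cd79b (-1.36, SE 0.44, adjusted p = 0.0339) fell, and the call of Cd79b ended without any 1 of 7 libraries. Of 5 muscle genes 3 fell (Acta1, Mylpf, Myh4), of 5 keratinocyte genes 3 (Krt10, Krt1, Lor), of 4 endothelial genes 1 (Tek) and of 4 fibroblast genes 1 (Col1a1). The call of Mylpf ended without any 1 of 13 libraries and with sex as a term (limma adjusted p = 0.0893). Keratinocyte calls numbered 1 without any 1 of WT arthritis replicate 4, Sema3b-/- control replicate 4 and WT control replicates 2 and 4. With sex as a term there were 0. Tek was not called without Sema3b-/- control replicate 3 or WT control replicate 4, nor Col1a1 without any 1 of Sema3b-/- control replicates 2 and 3 and WT control replicates 3 and 4. Keratinocyte genes summed to 2387 to 71988 in Sema3b-/- arthritis, 2255 to 82751 in WT arthritis, 56738 to 308543 in Sema3b-/- control and 57975 to 97672 in WT control. Muscle genes summed to 5396 to 48201 in Sema3b-/- arthritis, 5113 to 98440 in WT arthritis, 52460 to 138052 in Sema3b-/- control and 50723 to 72137 in WT control. No marker of these lists was at 0 in every library. Their part in the values of the class I genes was not tested.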

How the data were processed

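Total RNA of forepaws was read by CEL-seq with paired ends on a NextSeq500, per the labels. The submitters' processing notes name BWA, mm10 and DESeq2 1.32; the sources used here name no counting tool and do not say how strand or molecular barcodes were used. The table deposited by the authors holds, for 18585 genes, a signal per library, the normalized count: reads over the library's size factor. Reads recovered from the step between its low values were whole, within 0.02 of a read, for 100% of values. Separately, the authors deposited log2 fold changes, p-values, adjusted p-values and a score for their comparisons, used only where named as theirs. For replicate 5 of Sema3b-/- arthritis the column name ends in Ct while title and treatment say arthritis, and the label was followed. Titles of 2 Sema3b-/- controls both carry replicate number 3, so 1 of them became replicate 4.

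The main test was limma-trend (limma 3.58.1, R 4.3.3) with robust empirical Bayes on log2(value + 1), since the file holds no raw counts, with 4 group means over 18 libraries and 14 residual degrees of freedom. Genes at 10 or more in at least 4 libraries were tested, and those with a p under 0.05 after Benjamini-Hochberg adjustment were called. Fold changes on this scale understate those of low genes. Ratios of subunits were tested by exact permutation. Alternatives were a pseudocount of 5, no filter, TMM factors, edgeR 4.0.16 and DESeq2 1.42.0 on the recovered reads (fitted alike to 18 libraries), sex as a term, a replicate block, fewer arthritis libraries and each library left out. The fit was tested on simulated data.

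The members, the gene lists and the tests were chosen with earlier results of these data known. The text names all members, the list genes called in arthritis averaged over genotypes, and the 5 genes most like the members, except that 2 list genes are not reported here. H2-Q6, H2-Q7, H2-T22, Klrc1, Pirb and Lilrb4a, also listed, were not found under these symbols. The labels do not say outright that libraries are separate animals, and p-values measure the spread between libraries. The 32 pairs of libraries within groups differed by more than counting noise, with a chi-square of 9.59 to 197 per degree of freedom. Loci and 3' ends come from GENCODE M21 and promoters from RefSeq GRCm38.p6, the same build as mm10. Limits from counts of 0 cover counting error only.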

Additional observations from a re-analysis of the deposited data

Results flagged for a closer look

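The 10 genes in 4 groups give 40 sets of values, and 3 sets had a library that stood far from the rest of its group by Dixon's test at the 95% level (about 1 set in 20 does so by chance). Tap2 in Sema3b-/- arthritis replicate 4 was at 70.6 normalized counts, while the other 4 libraries were at 87.4 to 93.1. Tap2 in WT arthritis replicate 1 was at 123, while the other 4 were at 63.7 to 79.2. Tapbp in WT arthritis replicate 2 was at 733, while the other 4 were at 961 to 1034. With all 18 libraries and 4 group means, Tap2 and Tapbp passed limma in no comparison, and Tapbp passed in Sema3b-/- arthritis with sex as a term.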

How the results depend on the processing

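No value changed sign while called, and B2m averaged over genotypes was called in all 26 other fits (adjusted p 4.26e-05 to 0.0137). Of values for single members, 459 kept their side of the threshold under the other settings, 13 lost and 8 gained a call; leaving out 1 library kept 1035, lost 26 and gained 19. Members called were, in WT arthritis (0 as reported), 1 with DESeq2 and 0 to 1 with 1 library left out; in Sema3b-/- arthritis (3), 5 with DESeq2, 7 with sex as a term, 0 with only arthritis libraries whose titles begin with Joint, and 0 to 6 with 1 library left out; averaged (4), 1 with the Joint libraries only and 3 to 6 with 1 left out. Without the 3 arthritis libraries titled otherwise, Psmb8 (adjusted p = 0.0720), Psmb9 (0.0637) and Psmb10 (0.150) were not called.

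With the replicate number as a block, 1 member (B2m) was called in Sema3b-/- arthritis and 1 (B2m) averaged, and all genes called were 196 in WT arthritis, 1020 in Sema3b-/- arthritis and 1 in Sema3b-/- control against WT control. The numbers do not pair libraries, since 3 of 18 were closest to one of their own number and 25 same-numbered pairs had r from -0.66 to 0.41. Over all genes, 582 passed in WT arthritis, 1292 with DESeq2, 133 with sex as a term, 229 with Joint libraries only and 149 to 1112 with 1 left out; 1710 passed in Sema3b-/- arthritis, 396 with Joint only and 975 to 1913 with 1 left out; 3247 passed averaged, 1939 with Joint only and 2579 to 3768 with 1 left out. Genotype in controls gave 2 genes, 1 without the filter, 5 with DESeq2, 0 with sex as a term and 0 to 3 with 1 left out. Genotype in arthritis gave 3, 92 with DESeq2, 0 with Joint only and 2 to 6 with 1 left out. The interaction gave 0, and 8 with DESeq2. The causes of these shifts were not tested. Genes with few reads, above all Nlrc5 (5 reads in Sema3b-/- control replicate 1), are limited by depth.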
